A study of Mus musculus with 12 samples.

Results

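The NRF2 antioxidant response is described here through 10 genes chosen by symbol: the transcription factor Nfe2l2 (which encodes NRF2), its inhibitor Keap1, and the target genes Slc7a11, Gclc, Gclm, Gsr, Txnrd1, Srxn1, Nqo1 and Me1. All 10 were found among the 23574 entries of the count tables, and all 10 passed the filter on low counts, which left 14275 genes for testing. RNA was sequenced from liver of wild type C57BL/6 mice that had received concanavalin A (Con A), a lectin used to provoke T cell driven hepatitis. The 4 groups were Con A at 6 h, Con A with mesenchymal stem cells (MSC) at 6 h, Con A at 12 h, and Con A with MSC at 12 h, with 3 libraries in each. Every mouse had Con A, so no value here gives the level in an uninjured liver. The sources used here do not give the age of the mice, the species or dose of the MSC, or the clock time of sampling, so time after Con A and time of day cannot be told apart. Nor do they say whether the libraries of a group came from separate mice; p-values therefore refer to the spread among these libraries, which may be technical.

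NRF2 is made continuously and is normally destroyed: KEAP1 binds it and hands it to a CUL3 ubiquitin ligase. Oxidants and electrophiles modify cysteines of KEAP1, NRF2 then escapes, pairs with a small MAF protein and binds antioxidant response elements near its target genes. BACH1 competes for the same elements. The targets make and recycle glutathione and thioredoxin, detoxify quinones and supply NADPH, and in liver they limit injury by drugs and by inflammation. Because much of this control acts on the NRF2 protein, the RNA of Nfe2l2 and the activity of its targets are separate quantities, and the data here hold RNA only.

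The antioxidant response element was searched here as the core TGACNNNGC, where N is any base. Other forms of the element were not searched. Promoter windows of 300 bases (250 before to 50 after an annotated transcription start, RefSeq on GRCm38.p6) were found for 8 of the 10 genes, with 11 windows in all; Gclc and Gsr had no entry. The core was searched on both strands and was present in windows of 5 of these 8 genes, namely Nfe2l2, Gclm, Txnrd1, Srxn1 and Me1. For comparison, 12.4% of all 32851 windows and 14.0% of all 27025 genes in the same table held it. A match is a description of the letters, not evidence that NRF2 binds there, and elements outside the window were not searched. The windows of Nfe2l2 and Me1 are shown whole because the RNA of both genes fell from 6 h to 12 h with and without MSC. They read 5′ to 3′ along the gene, with the core in capitals.

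Nfe2l2 (chr2:75704614-75704913, minus strand): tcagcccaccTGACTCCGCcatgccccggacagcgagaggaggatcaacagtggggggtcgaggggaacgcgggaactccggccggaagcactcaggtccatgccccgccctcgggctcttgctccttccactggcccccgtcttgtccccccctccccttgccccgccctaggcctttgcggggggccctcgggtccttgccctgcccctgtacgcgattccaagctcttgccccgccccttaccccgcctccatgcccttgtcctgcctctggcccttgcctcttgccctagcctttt
Me1 (chr9:86695865-86696164, minus strand): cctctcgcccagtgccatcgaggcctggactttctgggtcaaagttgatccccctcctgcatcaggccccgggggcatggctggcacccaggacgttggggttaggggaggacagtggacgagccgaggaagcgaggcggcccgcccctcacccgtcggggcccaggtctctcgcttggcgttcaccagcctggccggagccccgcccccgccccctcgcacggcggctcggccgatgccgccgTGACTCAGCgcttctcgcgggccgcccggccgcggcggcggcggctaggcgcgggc

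Counting the transcription start as base 1 with no base 0, the Nfe2l2 core spans bases -240 to -232 and the Me1 core spans bases -6 to 3, across the start itself. The first 7 letters of the Me1 core, TGACTCA, are also the AP-1 motif. None of the other 4 cores contained it. Outside its core, the Srxn1 window holds TGAGTCAGC, which starts with the reverse complement of that motif. Cores with TGAG in place of TGAC were not searched, so the marked Srxn1 core need not be its only candidate. In Gclm, Txnrd1 and Srxn1 the core lies on the opposite strand, so it is read here as its reverse complement, with up to 15 bases on each side.

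Gclm (chr3:122245408-122245446, plus strand): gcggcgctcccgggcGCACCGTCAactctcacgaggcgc
Txnrd1 (chr10:82859099-82859137, plus strand): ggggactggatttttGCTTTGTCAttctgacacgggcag
Srxn1 (chr2:152105537-152105573, plus strand): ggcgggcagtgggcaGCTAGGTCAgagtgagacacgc

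These cores span bases -134 to -126 (Gclm), -92 to -84 (Txnrd1, in the second of its 3 annotated windows) and 29 to 37 (Srxn1). The windows of Keap1, Nqo1 and Slc7a11 held no match. In GENCODE M21 (GRCm38) the 5 genes that were called between the times lie at chr2:75675513-75704641 (Nfe2l2, minus strand), chr3:49892526-50443614 (Slc7a11, minus), chr8:33652523-33698163 (Gsr, plus), chr9:86581371-86695953 (Me1, minus) and chr10:82833951-82897712 (Txnrd1, plus).

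Each library held between 29.7 and 36.1 times 1e6 counts, and 3 counts in a library corresponded to 0.0657 to 0.119 CPM (counts per 1e6 counts, scaled by TMM factors, which equalise the bulk of genes between libraries). Mitochondrially encoded genes took 5.59% to 24.9% of the counts, with both extremes in Con A 12 h. The design text speaks of hepatocyte RNA and the sample labels of liver tissue. Markers of 8 cell types were read, and 7 hepatocyte markers summed to between 40535 and 111258 CPM. None of the markers of Kupffer cells, sinusoidal endothelium, stellate cells, neutrophils, T cells, B cells or cholangiocytes was at 0 in any group. Counts above 0 cannot tell whole liver from hepatocytes with some other cells among them. The values are described as those of liver, after the sample labels. In such bulk samples fewer cells of a type and less RNA per cell cannot be told apart.

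Calls among the 10 genes were made between the times after Con A. Between 6 h and 12 h without MSC, Nfe2l2, Slc7a11 and Me1 fell, and with MSC the same 3 genes fell together with Txnrd1 and Gsr. Of the 10 genes, 3 fell and 0 rose without MSC, where 24.8% of all tested genes fell and 24.4% rose. With MSC 5 fell and 0 rose, where 20.2% of all tested genes fell and 20.6% rose. Calls were made with edgeR's quasi-likelihood test at an adjusted p (Benjamini-Hochberg over 14275 genes) under 0.05. The median log2 change of the 10 genes was -0.30 without MSC and -0.48 with MSC, beside 0.02 and 0.06 over all tested genes. Scaling by total count instead of TMM moved the median of all genes to 0.28 and 0.59 and the split of all calls from 3479 higher and 3541 lower to 4301 and 2353 without MSC, and from 2936 and 2878 to 5789 and 1227 with MSC. Under that scaling 2 of the 10 genes rose and 3 fell in each comparison.

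**Figure D1:**
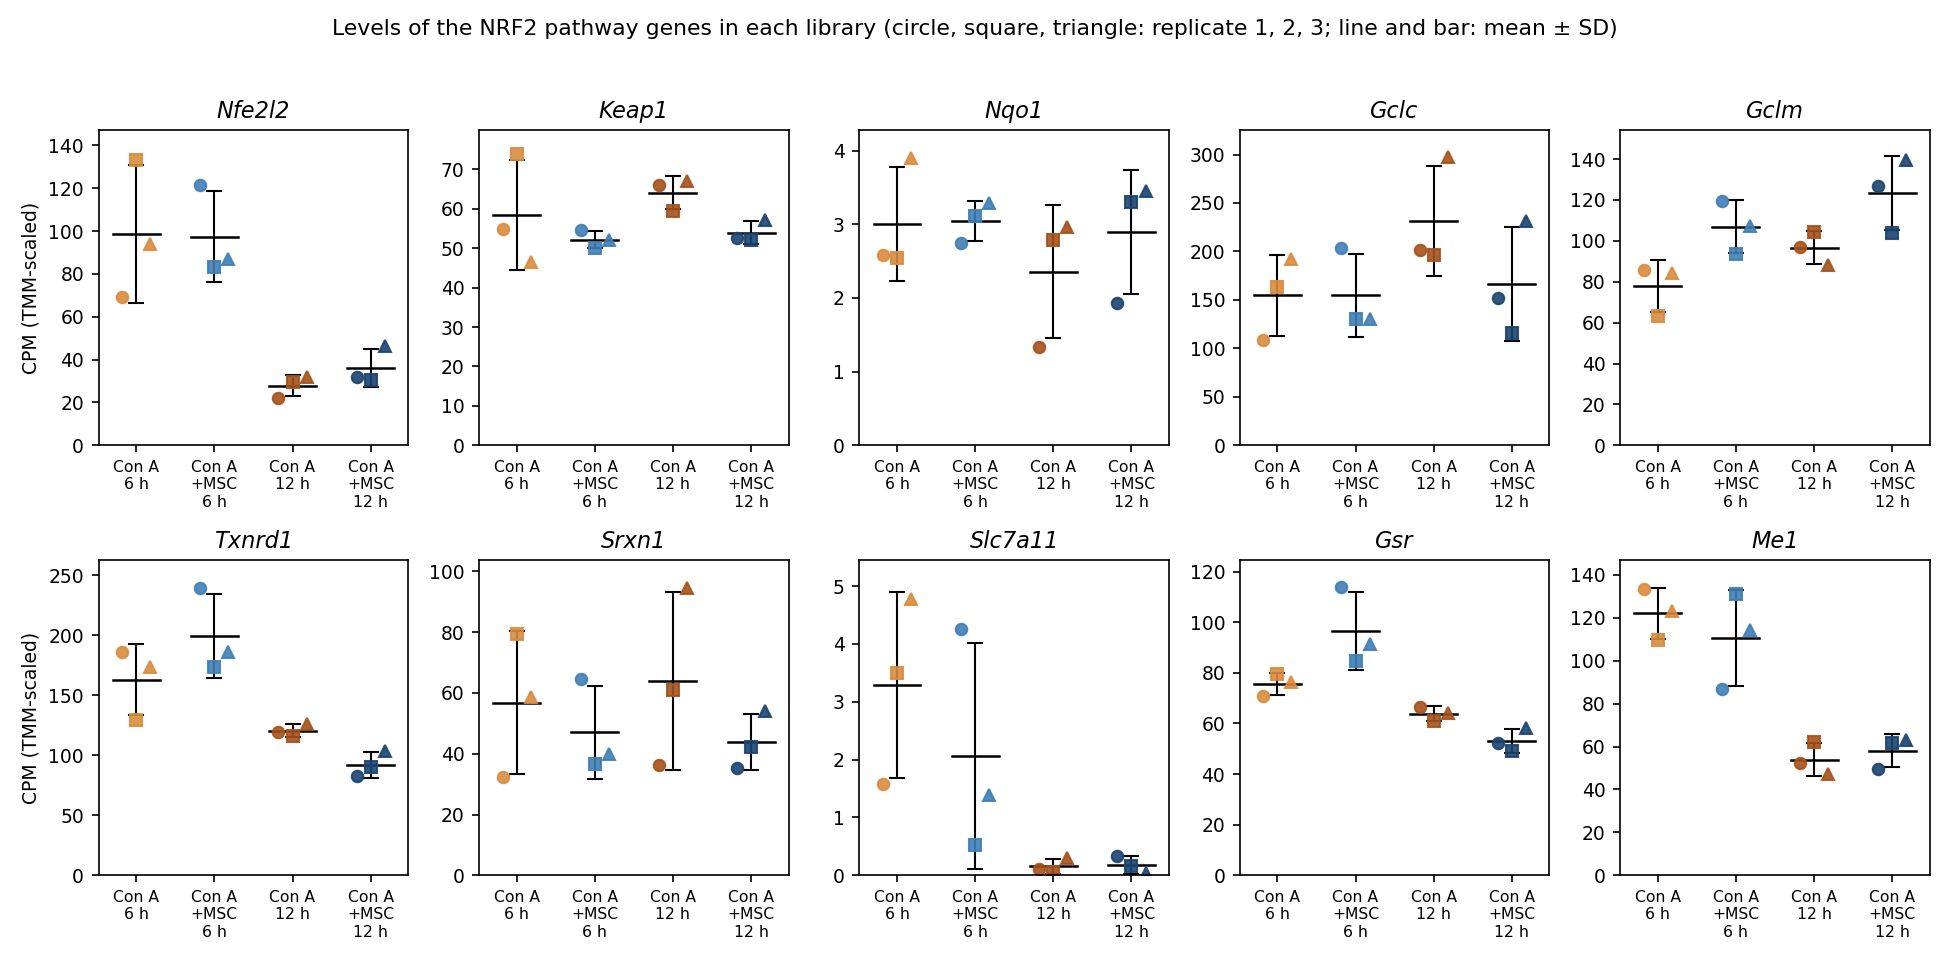
Level of each of the 10 genes in each of the 12 libraries, in TMM-scaled CPM on a linear axis from 0; symbols mark replicates 1 to 3 of each group, the line the group mean and the bar ± SD (n = 3). Nfe2l2, Slc7a11 and Me1 sit lower in all 6 libraries of 12 h than in all 6 of 6 h, and Keap1 stays between 46.4 and 73.9 CPM throughout.

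Nfe2l2, the gene of NRF2 itself, had 69.2, 133 and 93.8 CPM in the Con A 6 h libraries (replicates 1 to 3) and 122, 83.2 and 86.9 CPM with MSC at 6 h. At 12 h it had 22.3, 29.3 and 31.7 CPM without MSC and 31.8, 30.4 and 46.2 CPM with MSC. All 12 h libraries were thus below all 6 h libraries, while the groups with and without MSC overlapped at both times. Nfe2l2 fell by a log2 change of -1.83 ± 0.26 (SE) without MSC, which is 3.56-fold (edgeR adjusted p = 0.000171), and by -1.43 ± 0.26 with MSC, which is 2.69-fold (edgeR adjusted p = 0.00101). The value with MSC was -0.89 under total count scaling, and passed.

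Keap1, the adaptor that marks NRF2 for destruction, had 54.9, 73.9 and 46.4 CPM (Con A 6 h), 54.5, 49.985 and 52.1 CPM (Con A with MSC 6 h), 65.9, 59.4 and 67.0 CPM (Con A 12 h) and 52.6, 52.1 and 57.2 CPM (Con A with MSC 12 h). Its log2 difference between the times was 0.13 without MSC (95% interval -0.22 to 0.49) and 0.05 with MSC (-0.30 to 0.40), and neither passed (edgeR adjusted p = 0.518 and 0.839). With total count scaling the difference with MSC was 0.58 and passed (edgeR adjusted p = 0.0432). Keap1 departed least from its own mean of the 10 genes over the 12 libraries, with a root mean square of 0.19 log2 units, against 0.87 for Nfe2l2. Per kilobase of exon, the level of Keap1 was 12.4 against 26.0 CPM per kb for Nfe2l2 in Con A 6 h, and 13.7 against 7.32 CPM per kb in Con A 12 h. With MSC these levels were 11.1 against 25.6 at 6 h and 11.5 against 9.52 CPM per kb at 12 h.

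Slc7a11 encodes the light chain of the cystine importer, which brings in the cysteine needed for glutathione. It was the rarest of the 10, with 44, 106 and 121 counts in the Con A 6 h libraries and 107, 15 and 39 counts with MSC at 6 h. At 12 h it had 4, 2 and 8 counts without MSC and 13, 7 and 2 counts with MSC. In CPM these were 1.58, 3.50 and 4.77, then 4.26, 0.530 and 1.39 at 6 h, and 0.102, 0.0656 and 0.296, then 0.339, 0.153 and 0.0452 at 12 h. Every 12 h library lay below every 6 h library, and a library of each arm held 2 counts, under the floor of 3. Slc7a11 fell by -4.43 ± 0.88 on the log2 scale without MSC (edgeR adjusted p = 0.00144) and by -3.52 ± 0.83 with MSC (edgeR adjusted p = 0.00529), the largest changes and the widest errors of the 10. The group sums behind them were 271 and 14 counts without MSC and 161 and 22 counts with MSC.

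Gclc and Gclm encode the catalytic and the modifier subunit of glutamate cysteine ligase, the rate-limiting enzyme of glutathione synthesis. Gclc had 109, 163 and 192 CPM in Con A 6 h and 202, 196 and 297 CPM in Con A 12 h. With MSC it had 204, 130 and 131 CPM at 6 h and 152, 116 and 231 CPM at 12 h. The Con A libraries of 12 h were all above those of 6 h, and with MSC the times overlapped. Gclm had 85.8, 63.2 and 84.4 CPM in Con A 6 h and 97.2, 104 and 88.3 CPM in Con A 12 h. With MSC it had 120, 93.8 and 107 CPM at 6 h and 127, 104 and 139 CPM at 12 h. Neither subunit gene passed between the times: the log2 differences were 0.58 ± 0.29 (Gclc) and 0.31 ± 0.17 (Gclm) without MSC, and 0.11 ± 0.29 and 0.21 ± 0.17 with MSC (edgeR adjusted p = 0.118, 0.142, 0.801 and 0.352). With total count scaling both rose without MSC (log2 0.81 and 0.59, edgeR adjusted p = 0.0274 and 0.0195), and Gclm rose with MSC (log2 0.74, edgeR adjusted p = 0.00535). Per kilobase of exon, the ratio of Gclc to Gclm in the livers without MSC was 3.41 ± 1.14 (mean ± SD, n = 3) at 6 h and 4.07 ± 1.35 at 12 h. With MSC the ratio was 2.40 ± 0.414 at 6 h and 2.21 ± 0.487 at 12 h, and libraries with and without MSC overlapped at 6 h but not at 12 h, where those with MSC reached 2.77 and those without started at 3.14. The ratio was not tested, nor set beside ratios of other genes. Neither gene passed for MSC at 12 h (edgeR adjusted p = 0.363 for Gclc and 0.244 for Gclm).

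Gsr encodes glutathione reductase, which returns oxidised glutathione to its reduced form. It had 70.7, 79.4 and 76.5 CPM in Con A 6 h and 66.7, 60.8 and 64.0 CPM in Con A 12 h. With MSC it had 114, 84.7 and 91.2 CPM at 6 h and 52.1, 49.0 and 58.1 CPM at 12 h. The highest values were thus in the 6 h livers with MSC and the lowest in the 12 h livers with MSC. Gsr fell with MSC by -0.86 ± 0.14 on the log2 scale (edgeR adjusted p = 0.000561), a call that ended with total count scaling (-0.32, edgeR adjusted p = 0.168). Without MSC the log2 difference was -0.24 ± 0.14 and did not pass (edgeR adjusted p = 0.175), and it was 0.02 with total count scaling.

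Txnrd1 encodes cytosolic thioredoxin reductase, a selenoprotein that keeps thioredoxin reduced. It had 186, 130 and 174 CPM in Con A 6 h and 119, 116 and 126 CPM in Con A 12 h. With MSC it had 240, 173 and 186 CPM at 6 h and 82.6, 90.2 and 103 CPM at 12 h. The times did not overlap in either arm. Txnrd1 fell with MSC by -1.11 ± 0.18 on the log2 scale, which is 2.17-fold (edgeR adjusted p = 0.000416), and by -0.57 with total count scaling. Without MSC it had -0.44 ± 0.18 and did not pass (edgeR adjusted p = 0.0557). That second value lay near the threshold: it passed in DESeq2 (adjusted p = 0.0422) and when replicate 2 of Con A 6 h, which had the lowest Txnrd1 of its group, was left out (log2 -0.56, edgeR adjusted p = 0.0175).

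Srxn1 encodes sulfiredoxin, which repairs overoxidised peroxiredoxins. It had 32.5, 79.3 and 58.8 CPM in Con A 6 h and 36.4, 61.1 and 94.6 CPM in Con A 12 h. With MSC it had 64.5, 36.7 and 39.9 CPM at 6 h and 35.4, 42.3 and 53.9 CPM at 12 h. All 4 groups overlapped, and within the groups without MSC the highest library exceeded the lowest 2.44-fold (6 h) and 2.60-fold (12 h). The log2 difference between the times was 0.17 (95% interval -0.63 to 0.97) without MSC and -0.10 (-0.90 to 0.70) with MSC, and the sign of each depended on the library left out.

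Nqo1, the quinone reductase often used as a readout of NRF2 activity, was low in every library. It had 2.58, 2.54 and 3.90 CPM in Con A 6 h, 2.74, 3.11 and 3.28 CPM with MSC at 6 h, 1.33, 2.79 and 2.96 CPM in Con A 12 h and 1.93, 3.31 and 3.46 CPM with MSC at 12 h. The counts behind these values were 52 to 153 per library. The log2 difference between the times was -0.36 (95% interval -1.09 to 0.37) without MSC and -0.07 (-0.79 to 0.65) with MSC (edgeR adjusted p = 0.401 and 0.886).

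Me1 encodes cytosolic malic enzyme, which makes NADPH and is also a gene of fat synthesis. It had 134, 110 and 123 CPM in Con A 6 h and 52.2, 62.3 and 47.1 CPM in Con A 12 h. With MSC it had 86.9, 131 and 114 CPM at 6 h and 49.4, 61.6 and 63.3 CPM at 12 h. All 12 h libraries were below all 6 h libraries. Me1 fell by -1.18 ± 0.18 on the log2 scale without MSC (edgeR adjusted p = 0.000270) and by -0.93 ± 0.18 with MSC (edgeR adjusted p = 0.00156). With total count scaling the value with MSC was -0.41 and did not pass (edgeR adjusted p = 0.135).

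Groups that do not overlap were counted as well. Without MSC, 5 of the 10 genes were lower in every 12 h library than in every 6 h library and 2 were higher, where 27.3% and 27.4% of all tested genes did so. With MSC, 5 were lower and 0 higher, where 28% and 30.6% did so. The 2 time comparisons share no library with each other, but each shares its libraries with the comparisons of MSC that follow.

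**Figure D2:**
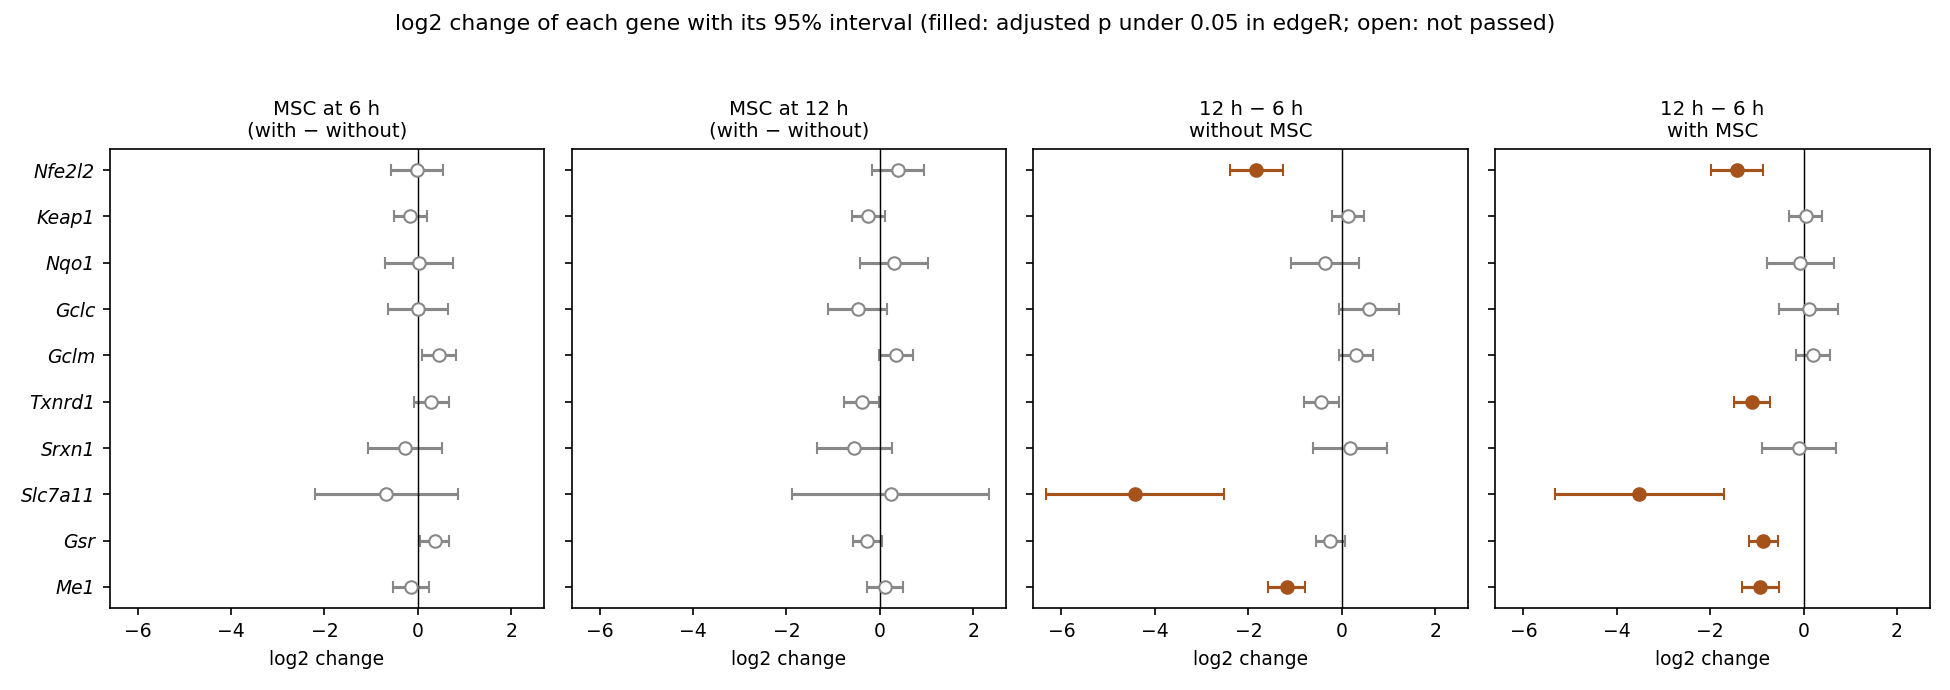
log2 change of each of the 10 genes with its 95% interval from the fit of all 12 libraries, in 4 comparisons; filled points passed (edgeR adjusted p under 0.05) and open points did not. No point is filled for MSC at either time, 3 are filled between the times without MSC and 5 with MSC, all of them below 0.

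The comparison of livers with and without MSC asks whether the cells changed the antioxidant programme of the injured liver. At 6 h 0 of 10 genes passed in edgeR and 0 in DESeq2. Of all 14275 tested genes, 0.0981% passed in edgeR and 307 genes in DESeq2. Of the 10, 2 had an unadjusted p under 0.05, as had 10.9% of all tested genes. These were Gclm, at 107 ± 12.9 against 77.8 ± 12.7 CPM (with against without MSC, mean ± SD, n = 3), and Gsr, at 96.7 ± 15.4 against 75.5 ± 4.41 CPM. The log2 differences were 0.46 (95% interval 0.09 to 0.83, edgeR adjusted p = 0.329) and 0.36 (0.05 to 0.67, edgeR adjusted p = 0.366). Both genes were higher in all 3 libraries with MSC than in any without, as were 8.22% of all tested genes, and without Con A with MSC 6 h replicate 1 the difference of Gsr was 0.21. Nfe2l2 itself had a log2 difference of -0.02 (-0.57 to 0.53), and Gclc had 0.00 (-0.64 to 0.64). For Txnrd1 the difference was 0.29 (-0.09 to 0.67), for Keap1 -0.16 (-0.51 to 0.19), for Me1 -0.14 (-0.53 to 0.25), for Nqo1 0.02 (-0.71 to 0.75), for Srxn1 -0.27 (-1.07 to 0.52) and for Slc7a11 -0.68 (-2.20 to 0.85). The intervals of Srxn1 and Slc7a11 thus include changes of 2-fold, and those of the other 8 genes do not.

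At 12 h 0 of 10 genes passed in edgeR and 0 in DESeq2. Of all 14275 tested genes, 4.08% passed in edgeR and 1477 genes in DESeq2. Of the 10, 1 had an unadjusted p under 0.05, as had 22.0% of all tested genes. That gene was Txnrd1, at 92.1 ± 10.6 against 121 ± 5.17 CPM (log2 -0.39, 95% interval -0.77 to -0.01, edgeR adjusted p = 0.218). Txnrd1, Keap1 and Gsr were lower in every library with MSC than in any without, where 13.1% of all tested genes were. Gsr had a log2 difference of -0.27 (-0.58 to 0.04) and Keap1 of -0.25 (-0.60 to 0.10). With total count scaling, which moved the median of all genes to 0.26 here, the values were -0.13 (Txnrd1), -0.011 (Gsr) and 0.011 (Keap1). Gclm was on the other side, at 123 ± 18.1 against 96.6 ± 8.02 CPM (0.35, -0.01 to 0.72), and so was Nfe2l2 at 36.1 ± 8.78 against 27.8 ± 4.92 CPM (0.38, -0.18 to 0.94). Gclc had -0.48 (-1.11 to 0.16), Srxn1 -0.54 (-1.34 to 0.25), Nqo1 0.31 (-0.42 to 1.03), Me1 0.11 (-0.28 to 0.50) and Slc7a11 0.23 (-1.87 to 2.34). The value of Srxn1 turned to 0.12 with the mitochondrial share as covariate and was -0.17 without Con A 12 h replicate 3. Of the 10 differences 5 were above 0 and 5 below, at 12 h as at 6 h, but none of them passed. At 6 h those of Gclc, Nqo1 and Nfe2l2 were near 0 (0.00, 0.02 and -0.02) and changed sign in some alternatives. The split therefore does not settle whether the genes share a direction. Over the same comparison the 7 Kupffer cell markers summed to 6.10 to 17.3 CPM without MSC and 38.4 to 70.0 CPM with MSC, the 8 endothelial markers to 34.1 to 45.3 and 84.5 to 113 CPM, and the 6 stellate cell markers to 45.5 to 62.9 and 97.0 to 178 CPM (3 of 7, 4 of 8 and 4 of 6 rose); their part in the values of the 10 genes was not tested.

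Whether the MSC difference itself changed with time was tested as an interaction. Again 0 of 10 genes passed in edgeR and 0 in DESeq2. Of all 14275 tested genes, 0.126% passed in edgeR and 705 genes in DESeq2. Of the 10, 2 had an unadjusted p under 0.05, as had 16.8% of all tested genes. These were the reductases Gsr (log2 -0.62 ± 0.20, edgeR adjusted p = 0.161) and Txnrd1 (-0.68 ± 0.25, edgeR adjusted p = 0.197). In both, the mean with MSC was higher than without at 6 h and lower at 12 h. The MSC difference passed at neither time for either gene, and the Txnrd1 libraries overlapped at 6 h. So although Gsr and Txnrd1 passed between the times with MSC and not without, the difference between the arms did not pass for either. For Nfe2l2 the interaction was 0.40 ± 0.36 and for Me1 0.25 ± 0.25.

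Levels of different genes were compared per kilobase of exon. Gclc was the highest of the 10 in each group, at 41.0 ± 11.2 (Con A 6 h), 41.1 ± 11.3 (Con A with MSC 6 h), 61.5 ± 15.1 (Con A 12 h) and 44.2 ± 15.6 CPM per kb (Con A with MSC 12 h). At 6 h its libraries overlapped those of the gene next in order (Me1 without MSC, Gsr with MSC), and at 12 h they did not overlap the next (Gsr without MSC, Gclm with MSC). Nqo1 and Slc7a11 were the ninth and the tenth in each group, apart from each other and from the eighth; Nqo1 lay between 1.52 and 1.96 CPM per kb in group means. Me1 went from the second place (31.7 ± 3.10 CPM per kb) in Con A 6 h to the sixth (14.0 ± 2.01) in Con A 12 h, and Nfe2l2 from the fourth (26.0 ± 8.49) to the eighth (7.32 ± 1.30). Nfe2l2 was above every library of Keap1 in Con A 6 h, from 18.2 against at most 15.7 CPM per kb, and below every one in Con A 12 h, up to 8.36 against at least 12.6. With MSC at 12 h the 2 genes overlapped, at 8.01 to 12.2 (Nfe2l2) and 11.1 to 12.2 CPM per kb (Keap1). Gclm moved the other way, from the eighth place (12.4 ± 2.01) to the fifth (15.4 ± 1.28) without MSC and from the sixth (17.0 ± 2.05) to the second (19.6 ± 2.87) with MSC.

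In Con A with MSC at 6 h, replicate 1 was the highest of its group for 8 of the 10 genes, as it was for 35.8% of all tested genes. In Con A with MSC at 12 h, replicate 3 was the highest for 9 of the 10, as it was for 32.2% of all tested genes, and in Con A 12 h replicate 3 was the highest for 7 of the 10 (33.7% of all). In Con A 6 h replicate 2 was the highest for 4 of the 10 (Nfe2l2, Keap1, Srxn1 and Gsr), near the 39.2% of all tested genes, and the lowest for 4 others (Txnrd1, Gclm, Me1 and Nqo1). The coefficient of variation within a group had a median over the 10 genes of 16.0% to 24.9% in the 4 groups, beside 14.8% to 20.9% over all genes with counts in every library. Slc7a11 was the most variable of the 10 in each group, at 49.0% to 94.7%.

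Profiles over the 12 libraries were compared by the root mean square difference of centred log2 CPM, as a description without a test. Among the 10 genes the nearest pair was Gsr and Txnrd1, the reductases of glutathione and thioredoxin, at 0.19 log2 units. Of 12969 named genes Gsr was the 25th nearest to Txnrd1, and Txnrd1 the 90th nearest to Gsr. Gclc and Srxn1 were 0.34 apart (Srxn1 the 80th nearest to Gclc, Gclc the 19th nearest to Srxn1). For the other 6 genes the nearest of the 10 stood at the 554th place or later, so these 2 pairs were the closest among them by place. Among the nearest of all named genes were Stat5a, Kansl1l and Foxo3 for Nfe2l2 (0.19, 0.22 and 0.24), Uqcrc2, Pgm1 and Agmat for Me1 (0.12, 0.13 and 0.14), Hdac4 and Ddx21 for Txnrd1 (0.13 and 0.14) and Vps13a, Tgs1 and Camsap2 for Gsr (0.08, 0.11 and 0.13).

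For Slc7a11 the 3 nearest genes were Trem1, a receptor of neutrophils and monocytes, Clec4e, a receptor of macrophages for microbial glycolipids, and the cytokine Il1b (0.44, 0.58 and 0.58 log2 units, where Slc7a11 itself departed from its mean by 1.94). The 6 neutrophil markers, read from a list that holds none of these genes, summed to 105 to 157 CPM in Con A 6 h, 39.2 to 138 CPM with MSC at 6 h, 22.0 to 38.4 CPM in Con A 12 h and 24.5 to 33.8 CPM with MSC at 12 h. In the 6 h libraries with MSC, the one with 138 CPM of neutrophil markers was the one with 4.26 CPM of Slc7a11, and the one with 39.2 CPM was the one with 0.530 CPM. In Con A 6 h the order differed: replicate 1 had 124 CPM of markers and the least Slc7a11 (1.58 CPM), and replicate 2 had the fewest markers (105 CPM) and 3.50 CPM of Slc7a11. Such an order was not particular to neutrophils. T cell markers followed Slc7a11 in both 6 h groups, at 4.62, 7.20 and 7.89 CPM without MSC and 8.11, 4.17 and 5.03 CPM with MSC (replicates 1 to 3). Kupffer cell markers followed it with MSC (67.1, 17.3 and 63.6 CPM) but not without (66.6, 52.2 and 28.6 CPM). Of the 6 markers, 6 fell between the times without MSC and 5 with MSC, and none was at 0 in any group. Markers of other cell types moved between the times too. Of 7 hepatocyte markers 4 fell in each arm. Of 7 Kupffer cell markers 5 fell without MSC (median log2 -2.64) and 2 with MSC (-0.38). Of 8 endothelial markers 5 fell without MSC (-2.04), and 1 fell and 2 rose with MSC (0.07). Of 6 stellate cell markers 2 fell and 1 rose without MSC, and 2 fell and 4 rose with MSC. Of 6 T cell markers 1 fell and 0 rose without MSC, and 0 fell and 0 rose with MSC. The part of these cell types in the falls of Slc7a11 and the other genes was not tested.

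**Figure D3:**
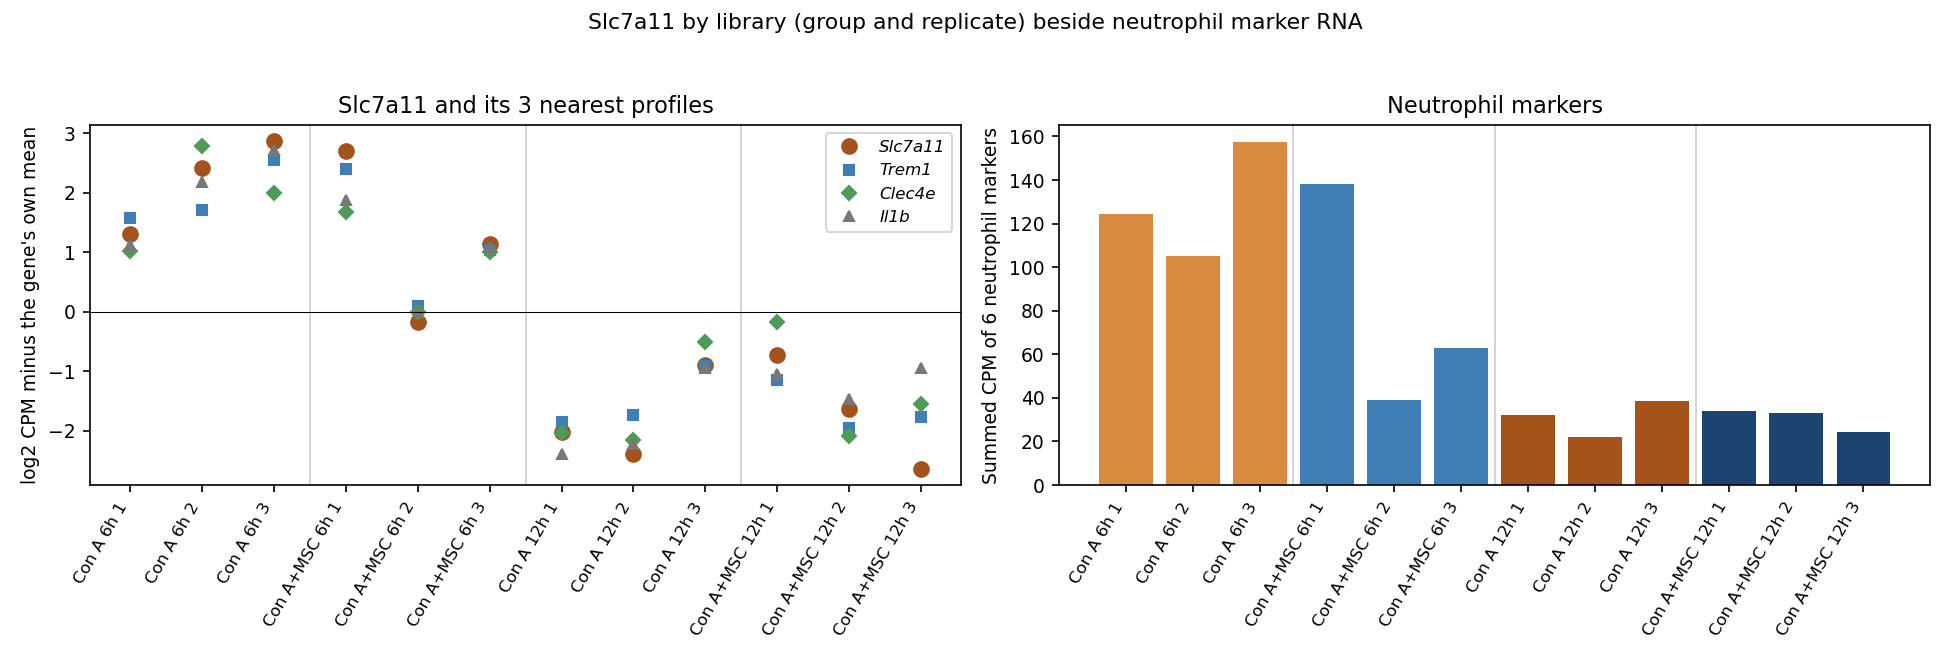
Left, log2 CPM of Slc7a11 and its 3 nearest genes minus each gene's own mean, by library; right, summed CPM of 6 neutrophil markers in the same libraries (bars from 0). The markers are high in Con A 6 h and in replicate 1 of Con A with MSC 6 h, lower in replicates 2 and 3 of that group, and low in all 12 h libraries. Slc7a11 is low in all 12 h libraries too. At 6 h its replicate 1 without MSC (1.58 CPM) lies near replicate 3 with MSC (1.39 CPM).

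Genes around the 10 were read from 8 lists with 103 genes, 100 of them tested. These include 11 ATF4 genes and 10 lipogenic genes, listed for regulation they share with Slc7a11 or Me1. Counts over the 100 are therefore not counts of the NRF2 pathway alone. Of all 100, 6 rose and 47 fell without MSC, and 9 rose and 43 fell with MSC; of all tested genes 24.4% rose and 24.8% fell without MSC, and 20.6% rose and 20.2% fell with MSC. For MSC itself at 6 h, 0 of the 100 passed in edgeR (0.0981% of all tested genes) and 2 in DESeq2 (307 of all 14275). At an unadjusted p under 0.05 there were 13 (10.9% of all tested genes). At 12 h 3 passed in edgeR (4.08% of all) and 15 in DESeq2 (1477 of all 14275). At an unadjusted p under 0.05 there were 25 (22.0% of all). The factors and adaptors around NRF2 come first: of 12 NRF2 partners and regulators 6 fell and 2 rose between the times without MSC, and 6 fell and 2 rose with MSC, with medians of -0.57 and -0.83. Under total count scaling 5 fell and 2 rose without MSC and 4 fell and 3 rose with MSC, with medians of -0.32 and -0.29, and the median with MSC was -0.54 without Con A with MSC 6 h replicate 1. Bach1, the repressor that competes with NRF2, went from 147 ± 28.2 to 23.1 ± 1.93 CPM without MSC (log2 -2.67 ± 0.26, edgeR adjusted p = 1.21e-05) and from 160 ± 53.7 to 17.9 ± 4.21 CPM with MSC (-3.16 ± 0.26, edgeR adjusted p = 4.47e-06). The small MAF genes Maff and Mafk, which encode partners of both NRF2 and BACH1, fell too, Maff by -2.93 and -4.32 and Mafk by -1.47 and -1.54 on the log2 scale. Maff was also the 1 gene of this list that fell with MSC at 12 h, at 3.01 ± 0.187 against 8.78 ± 3.20 CPM (log2 -1.54 ± 0.24, edgeR adjusted p = 0.00811). Without Con A with MSC 12 h replicate 3, or in a fit of only the groups compared, 0 genes of the list passed there.

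Of 25 other NRF2 targets of liver 14 fell and 1 rose in each arm, with medians of -0.57 and -0.65; with total count scaling 11 fell in each arm, with 2 and 1 that rose and medians of -0.41 and -0.11. The median without MSC was -0.91, -0.90 and -0.40 without replicates 1, 2 and 3 of Con A 6 h, -1.21 without Con A 12 h replicate 3 and -1.36 with the mitochondrial share as covariate. Hmox1, the enzyme that opens heme, went from 462 ± 87.7 to 37.7 ± 13.4 CPM without MSC and from 538 ± 112 to 40.6 ± 8.42 CPM with MSC (log2 -3.62 ± 0.30 and -3.73 ± 0.30, edgeR adjusted p = 6.13e-06 and 3.82e-06). Abcc3, an exporter of conjugates, fell by -2.16 and -2.04, and the glutathione transferase Gstm3 fell by -5.03 without MSC. With MSC, the mean of Gstm3 went from 105 ± 46.9 to 6.08 ± 2.32 CPM. Hmox1 is also a target that BACH1 represses. Of the 25, 1 fell with MSC at 12 h, the ferritin chain Ftl1, at 1559 ± 194 against 2774 ± 724 CPM (log2 -0.83 ± 0.20, edgeR adjusted p = 0.0422). That count was 0 without replicate 2 or 3 of either 12 h group, with total count scaling (where 3 rose) and with the mitochondrial share as covariate, and 3 without Con A 12 h replicate 1. The 1 gene that rose between the times with MSC no longer passed with a replicate block or without any 1 of 5 libraries (all but Con A with MSC 12 h replicate 2).

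Next come the enzymes that work beside the 10 genes. Of 14 tested genes of glutathione synthesis and use, 6 fell and 1 rose without MSC and 6 fell and 2 rose with MSC. With total count scaling 4 fell and 1 rose, and 3 fell and 3 rose. With 1 library left out, 4 to 6 fell without MSC and 4 or 5 with MSC. Glrx, a glutaredoxin, fell by -1.45 without MSC, and Gsto1, an omega class transferase, by -0.95 without and -1.02 with MSC. With MSC, the mean of Glrx went from 42.9 ± 6.99 to 18.3 ± 2.21 CPM. Between the times with MSC, Chac2 rose by 1.03. Chac2, which breaks down glutathione, was the 1 gene of the list that rose with MSC at 12 h, at 8.97 ± 0.989 against 4.97 ± 0.807 CPM (log2 0.85 ± 0.21, edgeR adjusted p = 0.0435), and 0 rose without replicate 2 or 3 of either 12 h group, with no filter, with only the groups compared, with a replicate block or with the mitochondrial share as covariate. The median of the list turned from -0.20 to 0.07 without MSC and from -0.35 to 0.18 with MSC under total count scaling. Of 15 thioredoxin and peroxiredoxin genes 5 fell and 0 rose without MSC and 3 fell and 0 rose with MSC, among them the peroxiredoxin Prdx6 (-0.92 and -0.58) and the thioredoxin inhibitor Txnip (-1.16 and -1.78); with total count scaling 3 rose in each arm, 3 and 1 fell, and the median with MSC turned from -0.28 to 0.26. Without Con A 6 h replicate 1, 3 of the 15 fell in the arm without MSC, and without Con A 12 h replicate 1, 2 rose. The 3 of 15 that fell with MSC are near the 20.2% of all tested genes. Of 4 genes for superoxide dismutases and catalase 3 fell in each arm, and Cat, the peroxisomal catalase, went from 1355 ± 357 to 284 ± 68.8 CPM without MSC and from 1598 ± 165 to 456 ± 154 CPM with MSC (log2 -2.26 ± 0.28 and -1.81 ± 0.28, edgeR adjusted p = 6.85e-05 and 0.000334). With total count scaling 2 and 1 of these 4 fell and the median with MSC turned from -0.53 to 0.01. With 1 library left out, 2 or 3 fell without MSC. With MSC it was then 1 or 2, with 1 when Con A with MSC 12 h replicate 3 was left out. Of 11 tested genes of NADPH supply 3 fell and 1 rose without MSC and 4 fell and 1 rose with MSC, while with total count scaling 4 rose and 0 fell with MSC, with medians that turned from -0.21 to 0.01 and from -0.19 to 0.35. The 3 of 11 that fell without MSC are near the 24.8% of all tested genes. Nadk, which makes NADP, fell by -1.01 and -0.70 and the mitochondrial Idh2 by -1.04 and -0.97. Pgls rose by 0.68 without MSC, and Me2 rose by 1.55 with MSC.

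Genes that share other regulators with Slc7a11 and Me1 were read beside them. Of 11 ATF4 genes, a stress programme that also includes Slc7a11, 5 fell and 0 rose without MSC and 5 fell and 2 rose with MSC, among them Ddit4 (-4.42 and -4.26) and Atf3 (-4.30 and -5.52). With 1 library left out, the number that fell without MSC was 2 to 4. It was 2 without Con A 12 h replicate 1, and 3 without its replicate 3 or without Con A 6 h replicate 2. In a fit of only the groups compared it was 2, and with no filter or a replicate block it was 4. With total count scaling 3 fell in each arm. The 2 that rose with MSC were 0 without Con A with MSC 6 h replicate 1 or Con A with MSC 12 h replicate 2, and 1 without Con A with MSC 6 h replicate 2 or 3 or Con A with MSC 12 h replicate 3. Of 10 lipogenic genes, which share regulation with Me1, 7 fell and 1 rose without MSC and 3 fell and 1 rose with MSC. Thrsp, a regulator of lipogenesis, fell by -3.62 and -3.31 and the elongase Elovl6 by -2.53 and -2.42. With total count scaling 4 of these 10 fell without MSC, and the median with MSC turned from -0.26 to 0.26. With 1 library left out, 5 or 6 fell without MSC and 3 or 4 with MSC. The 1 gene that rose with MSC no longer passed with RLE factors, a replicate block or the mitochondrial share as covariate, or without replicate 1 or 2 of Con A with MSC 6 h or replicate 2 or 3 of Con A with MSC 12 h.

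**Figure D4:**
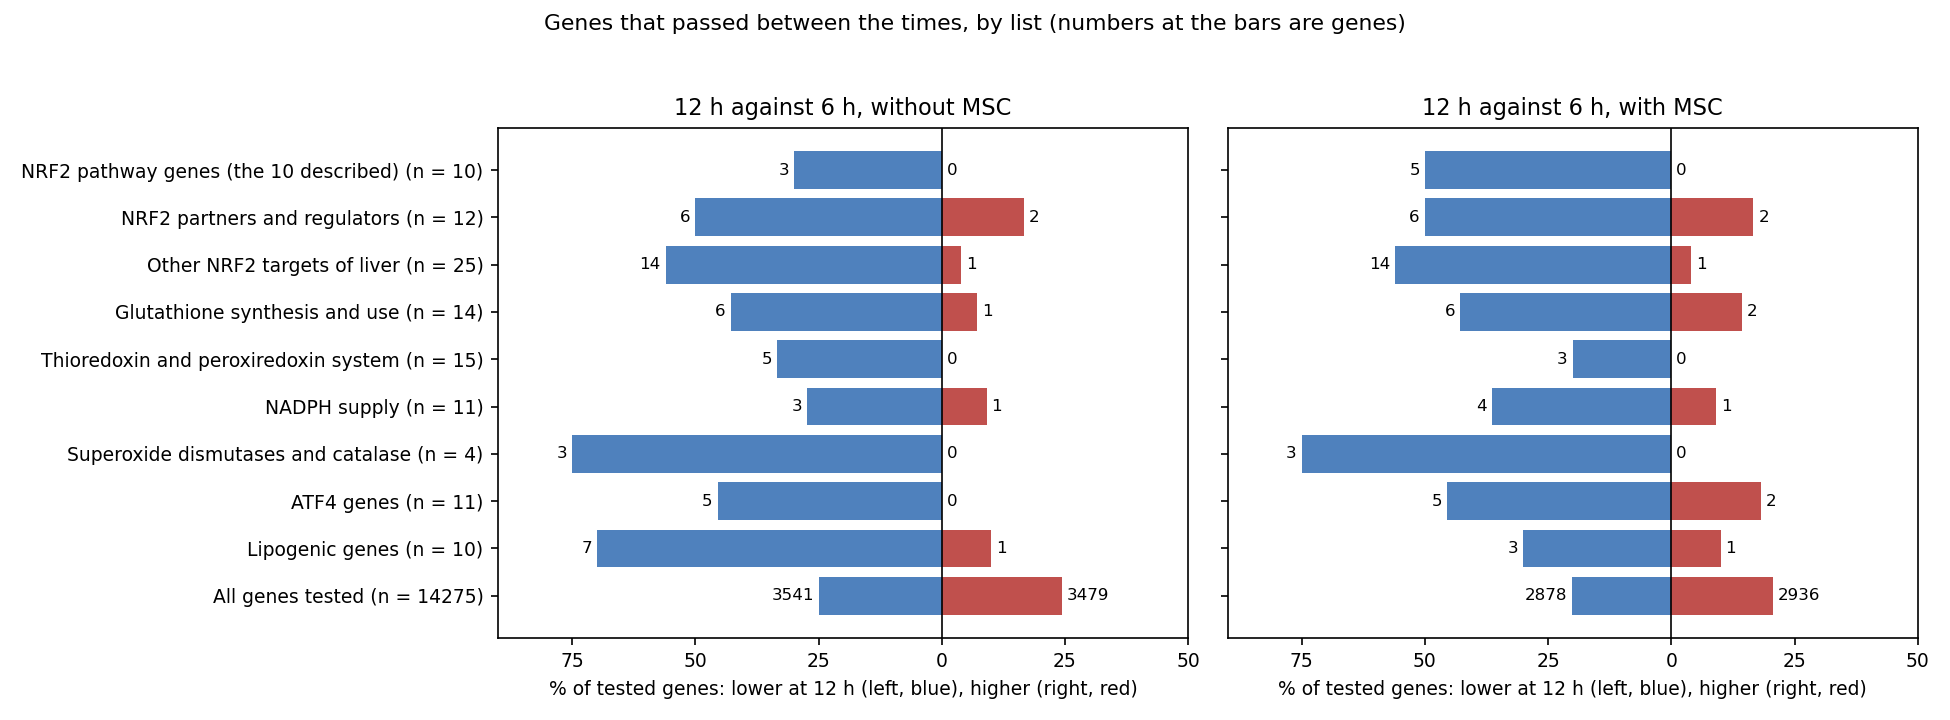
Percent of tested genes of each list that were lower (bars to the left of 0) or higher (to the right) at 12 h than at 6 h with an edgeR adjusted p under 0.05, in the left panel without MSC and in the right panel with MSC; the numbers at the bars are genes and the lowest row is the background of all 14275 tested genes. Among other NRF2 targets 14 of 25 fell in each arm and 1 rose.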

How the data were processed

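Versions in the submitters' processing notes are StringTie 2.1.2, HISAT2 2.0.4 and Bowtie2 2.2.5, with the build GRCm39. The counting program, its annotation and the strandedness: not given in the sources used here. The authors deposited whole-number counts per gene for 12 libraries, used as raw counts. Per the labels, mRNA was captured with oligo(dT) beads.

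All 12 libraries entered 1 fit with a mean per group (edgeR 4.0.16, filterByExpr, TMM, quasi-likelihood test, two-sided, R 4.3.3), with p-values adjusted by Benjamini-Hochberg over 14275 genes; 9299 were not tested. The standard error is the size of the change over the root of its F statistic, and 95% intervals use the t distribution of the fit. On simulated counts for MSC at 12 h (14275 genes, 200 changed) 25% of 2-fold and 73% of 4-fold changes were recovered. Alternatives were DESeq2 1.42.0, RLE factors, total count scaling, no filter, only the groups compared, a replicate block, the mitochondrial share as covariate, and each library left out.

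The 10 genes, the lists and the tests were chosen with earlier results of these data known. All 10 genes are named throughout; for a list, up to 3 genes with the smallest adjusted p per comparison. Per kilobase levels use exon bases of GENCODE M21 (GRCm38), and counted lengths may differ. In that annotation exon bases of Keap1, Gclm and Me1 are shared with Gm16754, Gm17494 and Gm6061, and A330041J22Rik; of these Gm6061 is on the strand of Gclm. Reads of overlapping genes cannot be told apart here. Replicate numbers gave no sign of pairing. Correlations of deviations ran from -0.23 to 0.13 for same-numbered libraries and from -0.14 to 0.20 for the others. Such values cannot show whether libraries of 1 number were handled together. The hepatocyte marker Tf was not matched by symbol. Log2 CPM for profiles had a prior count of 2, and the 3 nearest genes are named for each of the 10 genes that passed in a comparison; 1 gene this rule picks is not reported here. Count floors (3 counts) cover counting error only.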

Additional observations from a re-analysis of the deposited data

How the results depend on the processing

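Over 19 alternatives (7 other settings and 12 libraries left out in turn), the falls of Nfe2l2, Slc7a11 and Me1 without MSC and of Nfe2l2, Txnrd1 and Slc7a11 with MSC passed wherever they were fitted. Of 699 alternative values for the 10 genes, 648 kept their direction and side of the threshold, 43 changed sign, 6 newly passed and 2 no longer passed. Total count scaling gave 5 passing genes without MSC (2 higher, 3 lower) in place of 3. Where the values below moved or turned, the cause was not tested.

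Counts of all genes that passed moved for MSC at 6 h from 14 to 307 (DESeq2), 31 (total count scaling), 50 (no filter), 2 (only the groups compared), 4 (replicate block) and 64 (mitochondrial share as covariate), and to between 1 and 236 without single libraries. For MSC at 12 h they moved from 582 to 1477 (DESeq2), 135 (only the groups compared), 313 (replicate block) and 114 (mitochondrial share), and to between 66 and 1061 without single libraries; total count scaling split them into 734 higher and 95 lower in place of 327 and 255. For the interaction of MSC and time they moved from 18 to 705 (DESeq2), 211 (total count scaling), 45 (no filter) and 9 (mitochondrial share), and to between 3 and 131 without single libraries. The replicate block left 0, 0, 3, 5 and 0 of the 10 genes passing in the 5 comparisons, as without it; 2 of 12 libraries correlated best with a library of their own number.

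None of the differences that changed sign had passed; they include that of Srxn1 for MSC at 12 h (-0.54). Total count scaling turned Gclc to -0.033 (MSC at 6 h), Keap1 to 0.011 (MSC at 12 h), Gsr to 0.017 (time without MSC), Nqo1 to 0.46 and Srxn1 to 0.45 (time with MSC), and Keap1 to 0.21, Gclm to 0.16 and Srxn1 to 0.12 (difference of the MSC effect). The mitochondrial share as covariate turned Nqo1 to -0.061 and Gclc to -0.043 (MSC at 6 h), Srxn1 to 0.12 (MSC at 12 h), -0.34 (time without MSC), 0.16 (time with MSC) and 0.50 (difference), and Nqo1 to 0.16 (time with MSC). The replicate block turned Nfe2l2 to 0.013 and the fit of only the groups compared turned Gclc to -0.010, both for MSC at 6 h. Without single libraries, the MSC difference at 6 h ran from -0.22 to 0.27 (Nfe2l2), -0.30 to 0.053 (Keap1), -0.080 to 0.25 (Nqo1), -0.26 to 0.19 (Gclc) and -0.58 to 0.056 (Srxn1), and that of Slc7a11 at 12 h from -0.56 to 0.99. Between the times it ran from -0.20 to 0.51 (Srxn1, without MSC), and with MSC from -0.20 to 0.16 (Nqo1), -0.19 to 0.38 (Gclc) and -0.25 to 0.22 (Srxn1). The difference of the MSC effect ran from -0.29 to 0.034 (Keap1), -0.030 to 0.49 (Nqo1), -0.22 to 0.020 (Gclm) and -0.60 to 0.10 (Srxn1). At 2 to 13 counts per library at 12 h, the interval of the MSC difference in Slc7a11 was -1.87 to 2.34.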
